A study of Apis cerana with 9 samples.

Results

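A total of 3 genes for copper or haem oxidative enzymes are described here in the proboscis, the sucking mouthpart, of *Apis cerana*, the Asian honey bee: laccase-5-like (LOC108001912), chorion peroxidase (LOC107998613) and a gene listed both as lactoperoxidase and as peroxidasin (LOC107995589). They are 3 of the 12757 genes in the deposited table, picked by identifier, and their levels in these libraries were known when they were chosen. Their levels and fold changes are therefore given as a description with no test. All 3 genes passed the filter used for testing (3 or more of the 9 libraries at an FPKM of 1 or higher), as did 9259 genes in all, but chorion peroxidase passed it through 1 group only. A further 11 genes have laccase or peroxidase in their description, and 8 of these passed the filter.

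Laccases and haem peroxidases are oxidative enzymes that use a metal centre to couple small phenols or protein side chains to each other. Laccases carry copper and use oxygen, and in beetles one of them, laccase 2, hardens and darkens the cuticle. Haem peroxidases use hydrogen peroxide. Chorion peroxidase is known from flies and mosquitoes, where it cross-links the eggshell, lactoperoxidase is an antimicrobial enzyme of mammalian milk and saliva, and peroxidasin cross-links the collagen of basement membranes. The proboscis is a cuticular structure with muscle, sensory cells and gland ducts.

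RNA-seq of the proboscis was made for 9 libraries, 3 for each of 3 kinds of bees: carriers of rapeseed pollen (rapeseed), carriers of pear pollen (pear) and bees without pollen (non-pollen). The labels give no other treatment, age or strain, and leave unsaid whether replicate libraries are separate bees, pools of bees or colonies. The p-values below thus cover the variation among these samples alone, which may be technical variation. No collection day or batch is given, so pollen source cannot be told apart from anything else that differed between the groups.

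Total counts ran from 43034759 to 64306245. The libraries labelled proboscis differed widely in other tissue markers. The summed share of all counts taken by 13 major royal jelly protein genes, products of the food glands of the head, ran from 0.264 to 0.301% in the rapeseed libraries, from 0.484 to 0.740% in the pear libraries and from 32.1 to 32.4% in the non-pollen libraries. Gland enzymes (26 genes) took 0.525 to 0.536% in rapeseed, 0.417 to 0.467% in pear and 4.92 to 5.20% in non-pollen libraries. Eye genes (11 with opsin or arrestin in their description) took 0.00453 to 0.00468% in rapeseed, 0.00442 to 0.00519% in pear and 0.0772 to 0.0834% in non-pollen libraries. Cuticle protein genes (34) took 0.535 to 0.538% in rapeseed, 0.503 to 0.537% in pear and 0.248 to 0.262% in non-pollen libraries, and muscle genes (27) took 7.68 to 7.71% in rapeseed, 7.92 to 8.16% in pear and 3.73 to 3.80% in non-pollen libraries. Of these genes, 1 gland enzyme and 2 cuticle genes were at 0 in every rapeseed library, 1 eye and 2 cuticle genes in every pear library, and 1 royal jelly, 1 muscle and 2 cuticle genes in every non-pollen library. The part of these differences in the results below was not tested. In such bulk samples fewer cells of a type and less RNA per cell cannot be told apart.

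Fold changes against the non-pollen libraries depend on the scaling between libraries. Counts were scaled by TMM, a factor that sets the bulk of genes level, and levels are given as CPM (counts relative to the library's scaled total) or as the authors' FPKM (fragment counts divided by gene length and library total, not so scaled). With library totals alone, the median log2 fold change of all tested genes was 0.471 in rapeseed and 0.529 in pear libraries against the non-pollen libraries, and -0.0506 in rapeseed against pear libraries, where TMM gave -0.02, -0.01 and -0.01. Directions against the non-pollen group that depend on this choice are named where they occur.

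Laccase-5-like lies on the plus strand of scaffold NW_016019641.1 from 676349 to 680283. The genome build of these coordinates is not given in the sources used here, and the table lists no exons. Its annotation in the table names copper ion binding, hydroquinone oxidation by oxygen and development of the chitin-based cuticle. The gene had counts of 64390, 60100 and 60381 in rapeseed, 1556, 1379 and 1416 in pear, and 6986, 9994 and 10089 in non-pollen libraries. All rapeseed libraries were far above all others, all pear libraries were the lowest, and no group overlapped another. Its FPKM was 568, 577 and 557 in rapeseed, 16.2, 14.2 and 14.5 in pear, and 75.8, 72.7 and 76.7 in non-pollen libraries.

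By mean FPKM, laccase-5-like ranked 97 of the 12757 genes in the rapeseed group, 4160 in the pear group and 627 in the non-pollen group. Its log2 fold change after TMM scaling was 2.41 (standard error, SE, 0.0397) in rapeseed against non-pollen libraries, a 5.33-fold higher level. The pear value against the same libraries was -2.88 (SE 0.0437), a 7.35-fold lower level. The 2 pollen groups thus stood on opposite sides of the non-pollen group, and the rapeseed level was 39.2-fold above the pear level (log2 fold change 5.29, SE 0.0466). Under library totals alone the values were 2.91, -2.34 and 5.25, with the same directions. Between the rapeseed and pear libraries, where laccase-5-like differed most, 6 of 10 lists of tissue markers had shares that did not overlap. The royal jelly, muscle, fat body (0.114 to 0.117% in rapeseed, 0.118 to 0.122% in pear) and odorant-binding protein (0.0130 to 0.0145% in rapeseed, 0.0209 to 0.0287% in pear) shares were lower in rapeseed, and the gland enzyme and neuron (0.0628 to 0.0636% in rapeseed, 0.0610 to 0.0628% in pear) shares were higher, while the eye, cuticle, haemocyte and gustatory receptor shares overlapped. The part of these markers in this result was not tested.

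Chorion peroxidase is a short gene model on the plus strand of scaffold NW_016019264.1 from 1087425 to 1088062, a span of 638 bases. Counts for it were 0, 0 and 0 in rapeseed, 0, 0 and 8 in pear, and 281, 447 and 366 in non-pollen libraries. It was thus read in every non-pollen library and in only 1 of the 6 libraries from pollen carriers. Its FPKM was 0.348 in the 1 pear library with counts, against 13.0, 13.9 and 11.9 in non-pollen libraries.

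Over the pooled libraries of each group, chorion peroxidase was at least 465-fold lower in rapeseed than in non-pollen libraries, taking as floor the 3 counts that a count of 0 over the group allows (log2 ratio at most -8.86). It was 161-fold lower in pear than in non-pollen libraries (8 against 1094 counts, log2 ratio -7.33). Without pear replicate 3, which held all 8 counts, the pear group was at 0 and the ratio became a bound of -8.17 on the log2 scale. No fold is given between rapeseed and pear, which had 0 and 8 counts in all, and floor and ratio cover counting error only. The royal jelly, gland enzyme and eye shares were also higher in the non-pollen libraries by the ranges given above, and their part in this result was not tested.

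The lactoperoxidase gene LOC107995589 lies on the plus strand of scaffold NW_016018856.1 from 78861 to 86447. It lies within the span of a dynein heavy chain gene on the other strand (LOC107995585, from 75205 to 108701), which had 19 to 90 counts per library. Whether counting used strand is not given in the sources used here, so reads of the pair cannot be told apart. Counts of the lactoperoxidase gene were 2491, 2145 and 2362 in rapeseed, 1494, 1369 and 1429 in pear, and 1157, 1570 and 1752 in non-pollen libraries, more than its partner had in each.

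After TMM scaling, the lactoperoxidase gene had 41.9, 39.5 and 41.6 CPM in rapeseed, 28.2, 26.0 and 27.7 CPM in pear, and 34.8, 30.5 and 35.8 CPM in non-pollen libraries. The rapeseed libraries were the highest and the pear libraries the lowest on this scale, with no overlap between groups. The log2 fold change was 0.28 (SE 0.0700) in rapeseed against non-pollen libraries, -0.30 (SE 0.0710) in pear against non-pollen libraries and 0.59 (SE 0.0702) in rapeseed against pear libraries. The order of pear and non-pollen libraries turned with the scaling. With library totals alone the pear value was 0.23, which is still under the median of 0.529 of all genes in that setting, and the FPKM was 9.75, 9.14 and 9.67 in rapeseed, 6.89, 6.23 and 6.48 in pear, and 5.57, 5.07 and 5.91 in non-pollen libraries. The rapeseed libraries were the highest on each of these scales.

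**Figure D1:**
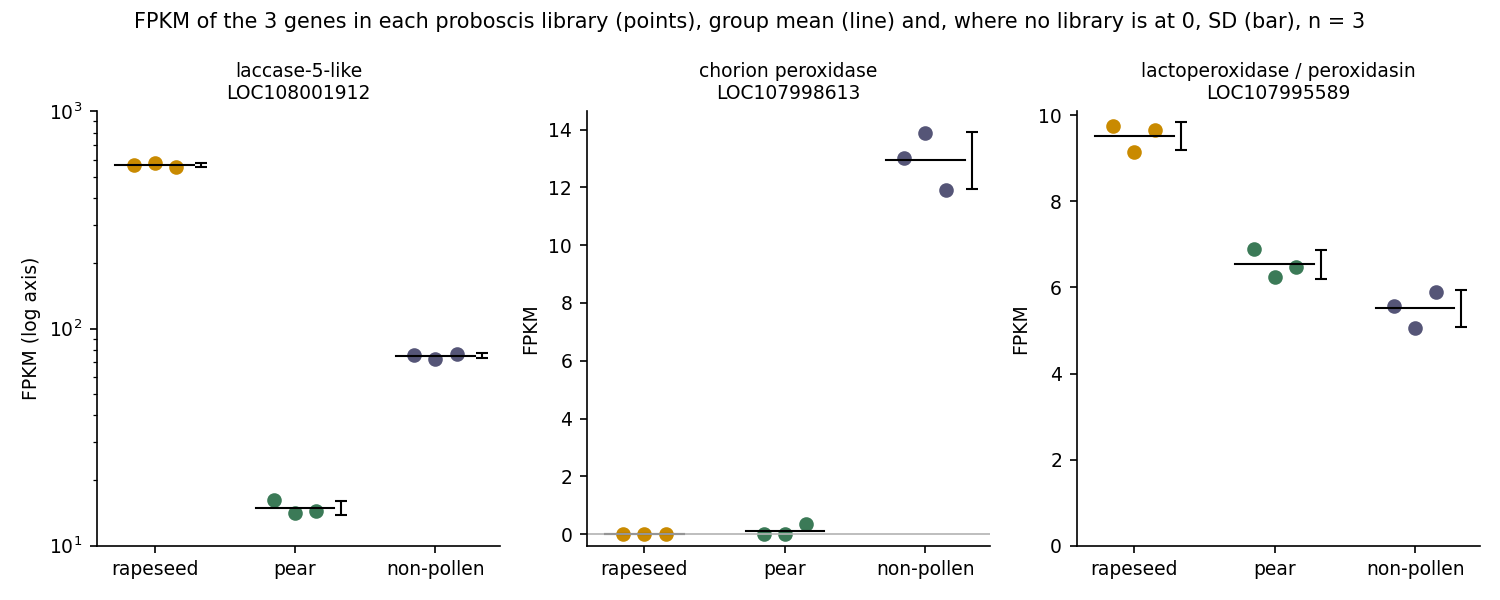
FPKM (authors' values, y axis) of the 3 genes in each of the 3 rapeseed, 3 pear and 3 non-pollen libraries, with laccase-5-like on a log axis and the others on linear axes. Points are libraries, lines group means and bars SD (n = 3, not drawn where a library is at 0). Laccase-5-like is at 557 to 577 in rapeseed, 14.2 to 16.2 in pear and 72.7 to 76.7 in non-pollen libraries, while chorion peroxidase is at 0 in 5 of the 6 libraries from pollen carriers.

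The 3 genes did not vary alike. Over the 9 libraries, Pearson's r of log2(CPM + 1) was 0.97 between laccase-5-like and the lactoperoxidase gene, 0.03 between laccase-5-like and chorion peroxidase, and -0.01 between chorion peroxidase and the lactoperoxidase gene. These values describe 3 groups of 3 libraries that share their scaling, and are no test. They were taken after TMM scaling, where both genes of the first pair were lowest in pear libraries. On FPKM the lactoperoxidase gene was lowest in non-pollen libraries instead. The 0.97 is thus given for TMM scaling only, and r on FPKM is not given. On both scales the rapeseed libraries were the highest for both genes. The size of the differences was unlike even in the first pair: laccase-5-like spanned 26.2 to 1106 CPM, and the lactoperoxidase gene 26.0 to 41.9 CPM.

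Of 4 other laccase genes that passed the filter, 1 rose and 2 fell in rapeseed against non-pollen libraries, and likewise 1 rose and 2 fell in pear against non-pollen libraries, where 29.3% and 28.5% of all genes tested were called higher and 30% and 27.2% lower. In rapeseed against pear libraries 0 rose and 2 fell by edgeR's quasi-likelihood test, where 7.94% of all genes were called higher and 4.96% lower. The 0 of 4 higher is close to the share of all genes. The 2 of 4 lower is above its share, but the 2 may be 1 gene (below). Likewise 0 rose and 2 fell at an unadjusted p under 0.05, by DESeq2 and by limma on FPKM. The direction of the median over these 4 genes was negative in all 3 comparisons after TMM scaling (-0.63, -0.35 and -0.24, against -0.02, -0.01 and -0.01 for all genes). With library totals alone the median over the laccases was -0.13 in rapeseed and turned to 0.18 in pear, both under the medians of all genes in that setting. The 2 that fell were in each comparison the 2 entries of laccase-1-like, which may be 1 gene (below). The counts and medians may thus count that gene more than once.

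Laccase-4-like (LOC107998920) had 6.83, 5.00 and 5.59 CPM in rapeseed, 4.59, 4.89 and 5.40 CPM in pear, and 3.00, 2.88 and 3.33 CPM in non-pollen libraries. Both pollen groups were above the non-pollen group and overlapped each other. The log2 fold change was 0.92 (SE 0.180, adjusted p = 0.000175) in rapeseed and 0.69 (SE 0.181, adjusted p = 0.00282) in pear against non-pollen libraries, and 0.23 (SE 0.174, adjusted p = 0.466) in rapeseed against pear libraries, by edgeR's quasi-likelihood test with Benjamini-Hochberg adjustment over all genes tested, as below.

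The gene next to laccase-5-like on the scaffold, a laccase-like gene on the minus strand (LOC108001913, from 680422 to 694618), had 8.68, 10.7 and 9.34 CPM in rapeseed, 8.06, 9.58 and 10.3 CPM in pear, and 12.2, 9.70 and 12.5 CPM in non-pollen libraries. The groups overlapped and no comparison passed the threshold. Its log2 fold change was -0.26 (SE 0.130, adjusted p = 0.0962) in rapeseed and -0.30 (SE 0.131, adjusted p = 0.0606) in pear against non-pollen libraries, and 0.04 (SE 0.130, adjusted p = 0.906) in rapeseed against pear libraries. Without non-pollen replicate 2 it was called lower in rapeseed (-0.37, adjusted p = 0.0327) and in pear (-0.40, adjusted p = 0.0211), and without pear replicate 3 in pear (-0.37, adjusted p = 0.0432). With the royal jelly and gland enzyme genes left out before scaling it was also called lower in pear (-0.31, adjusted p = 0.0459). The 2 genes are also neighbours in the assembly AcerK_1.0. Of the 3 genes on each side of laccase-5-like in the table, looked up after its values were known, 5 passed the filter, and their log2 fold changes in rapeseed against pear libraries ran from -0.21 to 0.06.

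Laccase-1-like appears at 2 identifiers. The first, LOC108000897, had 19.6, 19.5 and 18.5 CPM in rapeseed, 26.1, 28.5 and 28.4 CPM in pear, and 44.6, 41.5 and 48.7 CPM in non-pollen libraries. The second, LOC108001943, had 19.7, 19.8 and 18.6 CPM in rapeseed, 26.3, 32.3 and 29.0 CPM in pear, and 35.8, 42.3 and 37.6 CPM in non-pollen libraries. Both had the reverse order of laccase-5-like among the pollen groups, with the rapeseed libraries the lowest and the non-pollen libraries the highest, without overlap.

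For LOC108000897 the log2 fold change was -1.23 (SE 0.0747, adjusted p = 7.37e-12) in rapeseed and -0.70 (SE 0.0735, adjusted p = 5.78e-08) in pear against non-pollen libraries, and -0.53 (SE 0.0747, adjusted p = 2.95e-05) in rapeseed against pear libraries. For LOC108001943 these values were -0.99 (SE 0.0840, adjusted p = 1.61e-09), -0.40 (SE 0.0827, adjusted p = 0.000311) and -0.59 (SE 0.0839, adjusted p = 3.07e-05), and the pear value against non-pollen turned to 0.13 with library totals alone. The pear call of LOC108000897 was lost with limma on FPKM (-0.14, adjusted p = 0.0733). The 2 entries may not be separate genes. LOC108001943 is the single gene of a short scaffold and has a span of 4927 bases against 4922 for LOC108000897, and in AcerK_1.0, which lacks LOC108000897, it stands among the genes that flank LOC108000897 in the deposited table. Their values are therefore uncertain, since reads may have been split between near-identical copies. Laccase-2-like (LOC108003837), whose beetle namesake tans the cuticle, had 63 to 105 counts in the rapeseed, 40 to 73 in the pear and 23 to 48 in the non-pollen libraries and did not pass the filter.

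**Figure D2:**
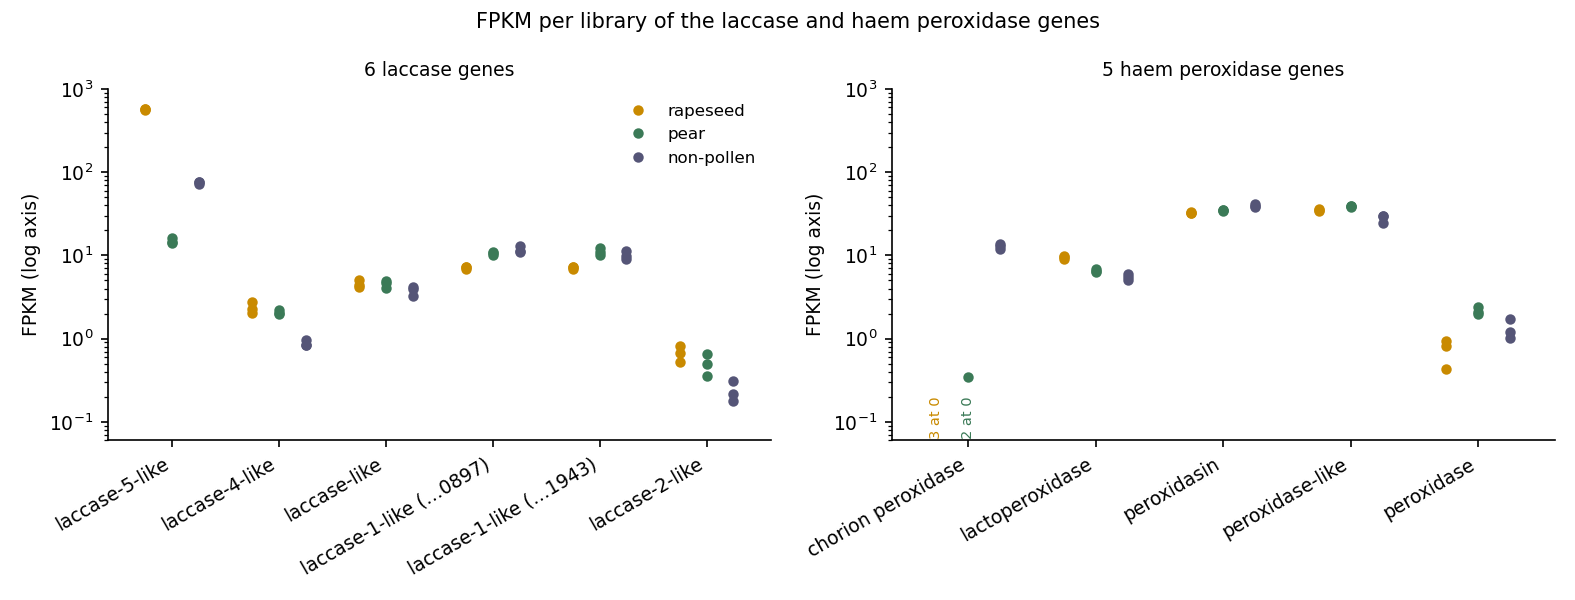
FPKM per library (y axis, log scale) of 6 laccase genes and 5 haem peroxidase genes (x axis) in rapeseed, pear and non-pollen libraries, with 1 point per library and libraries at 0 written as a count at the foot. Laccase-5-like is at 557 to 577 in rapeseed and at 14.2 to 16.2 in pear, where each laccase-1-like entry is at 10.2 to 12.4 and both summed are at 20.4 to 23.3.

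Measured by FPKM, which allows genes to be set side by side, laccase-5-like made up 96.3 ± 0.0616% of the summed laccase FPKM in rapeseed, 34.1 ± 3.01% in pear and 73.7 ± 0.906% in non-pollen libraries (mean ± SD, n = 3 each). The next laccase by share was laccase-1-like LOC108001943 in rapeseed and pear libraries and LOC108000897 in non-pollen libraries. If these are 1 gene with its reads split, the order in pear turns: their summed FPKM was 20.4, 23.3 and 21.5 in pear libraries, above laccase-5-like in each, while in rapeseed and non-pollen libraries the sum (13.8 to 14.6 and 20.6 to 22.8) was below it. LOC108000897 took 1.21% in rapeseed, 24.2% in pear and 11.5% in non-pollen libraries. The 6 laccases together took 0.126% of all counts in rapeseed, 0.0114% in pear and 0.0238% in non-pollen libraries.

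The haem peroxidases, chorion peroxidase and the lactoperoxidase gene included, are 9 genes. Together they took 0.0439% of all counts in rapeseed, 0.0461% in pear and 0.0418% in non-pollen libraries. Peroxidasin (LOC108001810) and peroxidase-like (LOC108002460) held most of their summed FPKM in each group. The lactoperoxidase gene made up 11.9 ± 0.403% in rapeseed, 7.76 ± 0.418% in pear and 6.21 ± 0.512% in non-pollen libraries (mean ± SD, n = 3 each). Chorion peroxidase made up 14.6 ± 1.11% (SD, n = 3) in the non-pollen group. Of the other 7, 3 passed the filter. Of these 0 rose and 3 fell in rapeseed against non-pollen libraries, where 29.3% of all genes were called higher and 30% lower. In pear against non-pollen libraries 0 rose and 1 fell, where 28.5% of all genes were called higher and 27.2% lower. In rapeseed against pear libraries 0 rose and 1 fell as well, where 7.94% of all genes were called higher and 4.96% lower. The count that rose was 0 also at an unadjusted p under 0.05 and by DESeq2, but by limma on FPKM and with library totals alone 1 rose and 2 fell in rapeseed and 2 rose and 1 fell in pear against non-pollen libraries. With library totals alone 6484 of all 9259 genes tested rose and 723 fell in rapeseed, and 6946 rose and 620 fell in pear. The median log2 fold change of these 3 haem peroxidases was -0.79, -0.08 and -0.09 in the 3 comparisons, with the pear value turning to 0.45 with library totals alone.

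Peroxidasin fell in both pollen groups, with 148, 145 and 145 CPM in rapeseed, 147, 154 and 154 CPM in pear, and 271, 246 and 242 CPM in non-pollen libraries. All libraries from pollen carriers were below all non-pollen libraries. The log2 fold change of LOC108001810 was -0.79 (SE 0.0420, adjusted p = 6.78e-13) in rapeseed and -0.74 (SE 0.0420, adjusted p = 2.93e-12) in pear against non-pollen libraries, and -0.06 (adjusted p = 0.428) in rapeseed against pear libraries.

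The gene listed only as peroxidase (LOC108002461) had 0.941, 2.08 and 1.76 CPM in rapeseed, 4.09, 5.09 and 4.57 CPM in pear, and 3.82, 3.13 and 5.29 CPM in non-pollen libraries. The rapeseed libraries were below all others, and the pear and non-pollen libraries overlapped. Against non-pollen libraries the log2 fold change in rapeseed was -1.36 (SE 0.265, adjusted p = 0.000167), it was 0.17 (SE 0.251, adjusted p = 0.589) in pear against non-pollen libraries and -1.53 (SE 0.263, adjusted p = 0.000303) in rapeseed against pear libraries. It was called higher in pear against non-pollen libraries with library totals alone (0.70, adjusted p = 0.0167) and with limma on FPKM (0.46, adjusted p = 0.0107), and its FPKM of 1.98 to 2.41 in pear and 1.02 to 1.73 in non-pollen libraries did not overlap. This gene thus had its lowest level where laccase-5-like had its highest.

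Its neighbour in the table, peroxidase-like LOC108002460, had 197, 204 and 205 CPM in rapeseed, 211, 216 and 217 CPM in pear, and 201, 238 and 242 CPM in non-pollen libraries. It was called lower in rapeseed against non-pollen libraries (log2 fold change -0.17, SE 0.0503, adjusted p = 0.00671) although the groups overlapped, and the call was lost without non-pollen replicate 3 (-0.12, adjusted p = 0.0569). In pear it was called lower without non-pollen replicate 1 (-0.16, adjusted p = 0.000665). With library totals alone its log2 fold change turned to 0.32 in rapeseed and 0.45 in pear, against -0.17 and -0.08 after TMM scaling.

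Both further genes of the chorion peroxidase family lie on the same scaffold as LOC107998613 and did not pass the filter. LOC107998608 (from 1131202 to 1159287) had 8 counts in non-pollen replicate 3 and none in the other libraries. LOC107998609 (from 1169109 to 1187107) had 32 to 48 counts in the rapeseed, 17 to 43 in the pear and 24 to 46 in the non-pollen libraries, so that its groups overlapped while its relative was read almost only in non-pollen libraries. AcerK_1.0 lacks LOC107998608, and in it LOC107998609 and LOC107998613 are direct neighbours. Whether these gene models are separate genes was not tested. How reads that match several genes were counted is not given in the sources used here. Peroxidasin-like LOC107992414, with 68 to 161 counts in every library, and peroxidasin-like LOC108002561, with 41 to 177, did not pass the filter either.

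Counted over the 8 tested genes with laccase or peroxidase in their description, which include 2 phospholipid hydroperoxide glutathione peroxidases (LOC107994450 and LOC108003552) with log2 fold changes between -0.02 and 0.13 and no call (LOC107994450 rose in rapeseed against both other groups without non-pollen replicate 1, and both were called higher in rapeseed against non-pollen libraries with library totals alone), 1 gene rose and 4 fell in rapeseed against non-pollen libraries, where 59.3% of all genes tested were called (29.3% higher and 30% lower). In pear against non-pollen libraries 1 rose and 2 fell, where 55.7% of all genes were called (28.5% higher and 27.2% lower). In rapeseed against pear libraries 0 rose and 3 fell, where 12.9% of all genes were called (7.94% higher and 4.96% lower). By DESeq2 and by limma on FPKM the count in this last comparison was also 0 higher and 3 lower, and at an unadjusted p under 0.05 it was 1 higher and 3 lower. Under library totals alone 4 rose and 3 fell in rapeseed and 5 rose and 1 fell in pear against non-pollen libraries. In that setting 6484 of all 9259 genes tested rose and 723 fell in rapeseed, and 6946 rose and 620 fell in pear. The 2 laccase-1-like entries, which may be 1 gene, are among those that fell in each comparison after TMM scaling.

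**Figure D3:**
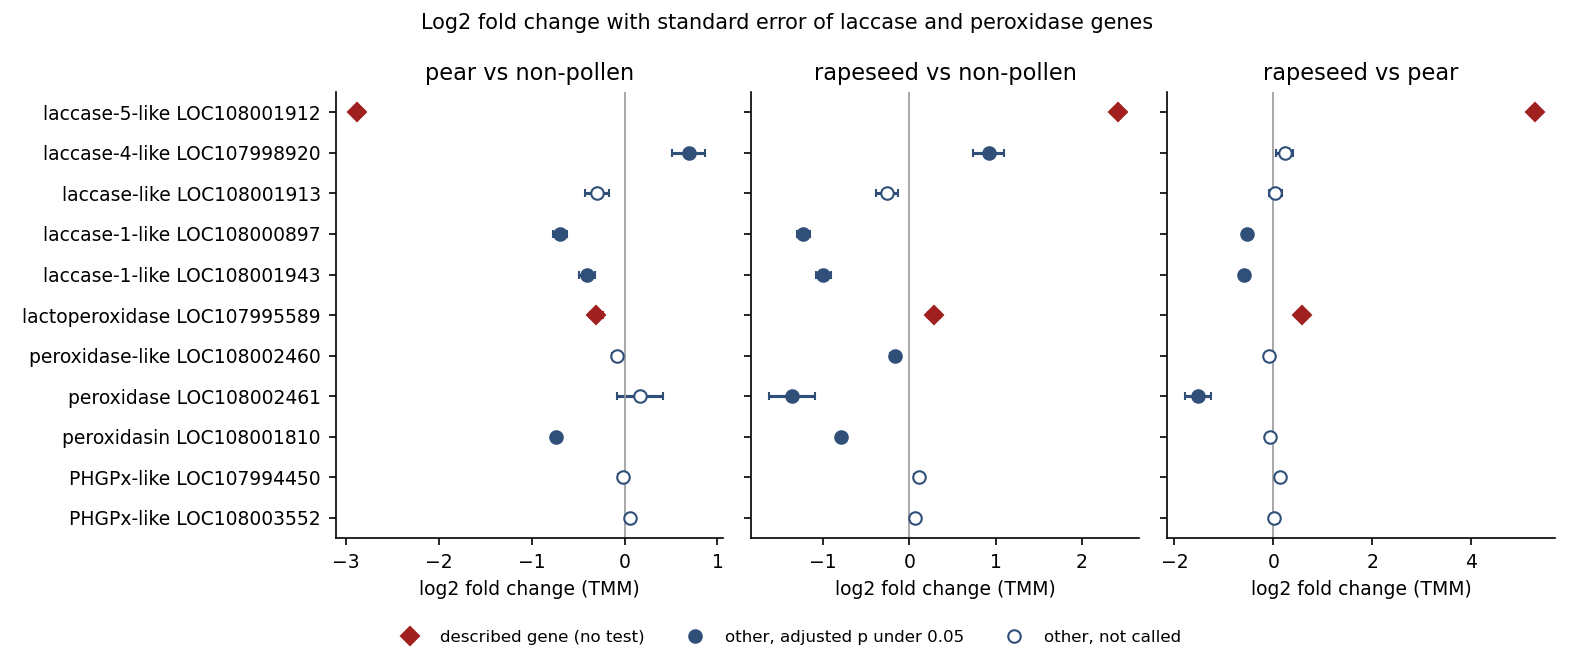
Log2 fold change after TMM scaling (x axis, bars are standard errors) of 11 laccase and peroxidase genes (rows) in the 3 comparisons. Red diamonds are laccase-5-like and the lactoperoxidase gene, given without a test, filled circles are other genes called at an adjusted p under 0.05, and open circles are genes not called. Chorion peroxidase is left out because 1 group is at 0, and laccase-5-like stands at 2.41, -2.88 and 5.29 in rapeseed against non-pollen, pear against non-pollen and rapeseed against pear.

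**Figure D4:**
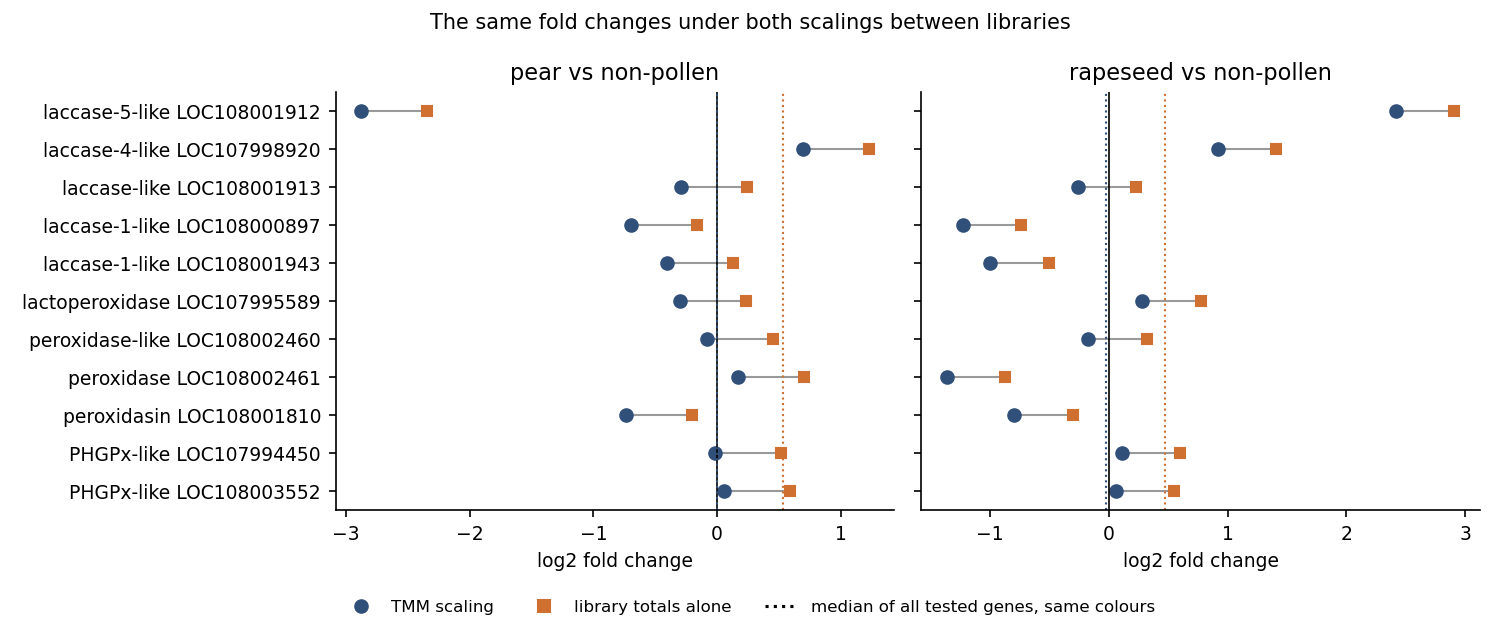
The same log2 fold changes (x axis) after TMM scaling (circles) and with library totals alone (squares), with dotted lines at the median of all tested genes under each scaling, for pear and for rapeseed against non-pollen libraries. Library totals alone move each gene to the right by about the shift of the median, 0.529 in pear and 0.471 in rapeseed, and turn the pear value of the lactoperoxidase gene to 0.23 while that of laccase-5-like stays at -2.34.

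Among 8 genes that supply or remove hydrogen peroxide, the substrate of haem peroxidases, 6 rose and 0 fell in rapeseed against non-pollen libraries, 5 rose and 0 fell in pear against non-pollen libraries, and 3 rose and 0 fell in rapeseed against pear libraries. Over all genes 29.3%, 28.5% and 7.94% were called higher and 30%, 27.2% and 4.96% lower in these comparisons. The median log2 fold changes were 0.37, 0.18 and 0.17. By DESeq2 0 fell in each comparison, and at an unadjusted p under 0.05, by limma on FPKM and with library totals alone 0, 0 and 1 fell. Catalase (LOC107993802), which breaks hydrogen peroxide down, had log2 fold changes of 0.66, 0.35 and 0.31 in these comparisons (adjusted p = 3.64e-13, 1.48e-08 and 6.49e-07). Copper-zinc superoxide dismutase (LOC107996551), which makes hydrogen peroxide out of superoxide, had 0.37, 0.15 and 0.21 (adjusted p = 5.16e-09, 0.000576 and 9.34e-05).

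Of the 2 oxidases named by the rule, NADPH oxidase 5 (LOC108004147) had log2 fold changes of 0.97 in rapeseed and 0.50 in pear against non-pollen libraries (adjusted p = 0.000133 and 0.0273), and dual oxidase-like (LOC107993848) had 0.67 and 0.76 (adjusted p = 7.87e-05 and 1.77e-05). The pear call of LOC108004147 was lost without non-pollen replicate 1 or 2 or pear replicate 1 or 2 (adjusted p from 0.0595 to 0.0835). Neither gene was called between rapeseed and pear libraries by edgeR (adjusted p = 0.101 and 0.682), while DESeq2 called LOC108004147 higher in rapeseed (0.48, adjusted p = 0.0475). Among 7 glutathione and thiol peroxidases, which remove peroxides without haem, 3 rose and 0 fell in rapeseed and 2 rose and 0 fell in pear against non-pollen libraries, and 2 rose and 0 fell in rapeseed against pear libraries, with medians of 0.11, 0.02 and 0.01, beside the same shares of all genes called higher and lower as above. By DESeq2 and by limma 0 fell in each comparison, and at an unadjusted p under 0.05 and with library totals alone 0, 0 and 1 fell. Peroxiredoxin 1 (LOC107992656) had 0.45, 0.21 and 0.24 in the 3 comparisons (adjusted p = 4.3e-10, 3.41e-05 and 4.02e-05). Peroxiredoxin-5 (LOC107996137) had 0.12 and 0.21 against non-pollen libraries (adjusted p = 0.0277 and 0.000324), the rapeseed call being lost without non-pollen replicate 2 or any 1 rapeseed library (adjusted p from 0.0507 to 0.101). A peroxiredoxin-like gene (LOC107995653) had 0.30 in rapeseed against non-pollen and 0.28 in rapeseed against pear libraries (adjusted p = 1.61e-06 and 3.17e-05).

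Cuticle tanning and melanin formation is the process in which laccases are best known in insects. Of 10 tested genes of this process 4 rose and 5 fell in rapeseed and likewise 4 rose and 5 fell in pear against non-pollen libraries, and 4 rose and 1 fell in rapeseed against pear libraries. All genes were called at 29.3% higher and 30% lower, 28.5% higher and 27.2% lower, and 7.94% higher and 4.96% lower in these comparisons. In rapeseed against pear libraries, 1 tanning gene rose and 1 fell with library totals alone and by limma on FPKM. By DESeq2, 4 rose and 1 fell there. The medians of the tanning genes were -0.13, -0.13 and 0.14, and turned to 0.36 in rapeseed and 0.40 in pear against non-pollen libraries with library totals alone. One yellow-like gene (LOC107997244) had 2.13 CPM in rapeseed, 1.42 CPM in pear and 12.3 CPM in non-pollen libraries on average (log2 fold change -2.51 and -3.11, adjusted p = 1.35e-08 and 1.1e-09). Another (LOC107999779) had 4978 CPM in rapeseed, 4255 CPM in pear and 2330 CPM in non-pollen libraries (1.10 and 0.87, adjusted p = 1.76e-17 and 8.67e-16).

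Dopamine N-acetyltransferase-like, whose fly relative acetylates dopamine for colourless cuticle, appears at 2 identifiers that both fell. LOC107999552 had log2 fold changes of -1.21 in rapeseed and -1.38 in pear against non-pollen libraries (adjusted p = 5.82e-15 and 7.67e-16), and LOC108000535 had -1.24 and -1.08 (adjusted p = 3.68e-05 and 0.000194).

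A basement membrane list was matched on wording such as collagen alpha, laminin subunit and prolyl 4-hydroxylase. The wording does not show which entries, if any, encode the collagen that peroxidasin cross-links. Of 18 tested genes of this list, 8 were higher and 2 lower in rapeseed and 9 higher and 3 lower in pear against non-pollen libraries. In rapeseed against pear libraries 3 were higher and 0 lower. There 0 were lower also by DESeq2, by limma and at an unadjusted p under 0.05, but 1 was lower with library totals alone. Over all genes 29.3%, 28.5% and 7.94% were called higher and 30%, 27.2% and 4.96% lower. The medians of these genes were 0.26, 0.18 and 0.08. Collagen alpha-1(IX) (LOC107997743) had log2 fold changes of -1.21 and -1.29 in rapeseed and pear against non-pollen libraries (adjusted p = 2.15e-10 and 9.66e-11). Laminin alpha-1 (LOC108002067) was one of those higher in rapeseed than in pear libraries (0.51, adjusted p = 1.52e-06), as the lactoperoxidase gene was by 0.59. Laminin gamma-1 (LOC107998555) had -0.47 and -0.56 against non-pollen libraries (adjusted p = 1.19e-07 and 1.18e-08), with the rapeseed value turning to 0.02 with library totals alone. Its pear call was lost there (-0.02, adjusted p = 0.717) and with limma on FPKM (-0.01, adjusted p = 0.919). Prolyl 4-hydroxylase (LOC108003281), which modifies collagen, had 0.48, 0.22 and 0.25 in the 3 comparisons (adjusted p = 9.7e-09, 0.000288 and 0.000387).

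The metal centres need copper and haem. Of 8 copper supply genes 2 rose and 4 fell in rapeseed and 1 rose and 3 fell in pear against non-pollen libraries, and 1 rose and 0 fell in rapeseed against pear libraries, where by DESeq2 0 fell and at an unadjusted p under 0.05 1 fell. These counts stand beside 59.3%, 55.7% and 12.9% of all genes called in either direction. By direction, 29.3%, 28.5% and 7.94% of all genes were called higher and 30%, 27.2% and 4.96% lower. The medians of the copper genes were -0.15, -0.15 and 0.05, and turned to 0.34 in rapeseed and 0.38 in pear against non-pollen libraries with library totals alone. High affinity copper uptake protein 1 (LOC107997123), which takes copper into the cell, had 32.0 CPM in rapeseed, 26.7 CPM in pear and 75.9 CPM in non-pollen libraries (log2 fold change -1.25 and -1.51, adjusted p = 5.55e-14 and 3.34e-15), and was the gene higher in rapeseed than in pear (0.26, adjusted p = 0.00365). Copper-transporting ATPase 1-like (LOC108000269), of a family that loads copper into secreted enzymes, had 1.28 and 1.03 against non-pollen libraries (adjusted p = 3.47e-06 and 5.95e-05), while copper-transporting ATPase 1 (LOC108002468) had -0.46 and -0.45 (adjusted p = 1.1e-06 and 2.02e-06), which turned to 0.03 and 0.09 with library totals alone. This list also holds, by its wording, the acetyltransferase ESCO1 (LOC108003537, -0.69 in rapeseed, adjusted p = 0.00194), which does not handle copper. That call was lost with library totals alone (-0.20, adjusted p = 0.304) and with limma on FPKM (-0.13, adjusted p = 0.337).

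Of 9 haem synthesis genes 3 rose and 3 fell in rapeseed and 2 rose and 3 fell in pear against non-pollen libraries, and 1 rose and 0 fell in rapeseed against pear libraries, where by DESeq2 and at an unadjusted p under 0.05 0 fell as well. The 6, 5 and 1 genes called of 9 are near the 59.3%, 55.7% and 12.9% of all genes called. The medians of the haem synthesis genes were 0.03, 0.02 and 0.04. Coproporphyrinogen oxidase (LOC107992688) had log2 fold changes of -0.64 and -0.70 (adjusted p = 2.01e-05 and 7.15e-06). Both calls were lost with library totals alone (-0.15 and -0.17, adjusted p = 0.222 and 0.165) and with limma on FPKM (-0.11 and -0.14, adjusted p = 0.314 and 0.223). Uroporphyrinogen-III synthase-like (LOC107994429) had 0.37 and 0.34 (adjusted p = 0.00828 and 0.0162), the pear call being lost without non-pollen replicate 1 or pear replicate 1 (adjusted p = 0.061 and 0.0597). Delta-aminolevulinic acid dehydratase (LOC107997050) had -0.42 and -0.46 (adjusted p = 0.000297 and 0.000117), which turned to 0.07 in both with library totals alone. Uroporphyrinogen decarboxylase (LOC108001415) had -0.14 and -0.32 (adjusted p = 0.0155 and 6.84e-06), which turned to 0.35 and 0.21 with library totals alone, and the rapeseed call was lost without non-pollen replicate 2 or rapeseed replicate 1 (adjusted p = 0.0556 and 0.0754). Over all of these lists together, the counts against non-pollen libraries shift upward with library totals alone: 47 genes rose and 10 fell in rapeseed and 48 rose and 7 fell in pear, of 66 genes in all. In that setting 6484 of all 9259 genes tested rose and 723 fell in rapeseed, and 6946 rose and 620 fell in pear. The counts that rose are thus near the share of all genes.

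The genes whose levels over the 9 libraries were most like that of laccase-5-like, by Pearson's r of log2(CPM + 1) among tested genes with a description, were venom serine protease 34-like (LOC107993933, 0.999), pancreatic triacylglycerol lipase-like (LOC108002367, 0.992), cytochrome P450 9e2-like (LOC108002715, 0.990), arylsulfatase B-like (LOC107997858, 0.989) and Cep78 (LOC107996845, 0.977). The protease had 333, 331 and 350 CPM in the rapeseed, 12.7, 11.4 and 10.1 CPM in the pear and 71.7, 74.8 and 79.6 CPM in the non-pollen libraries. The lipase averaged 70.8 CPM in rapeseed, 5.23 CPM in pear and 18.3 CPM in non-pollen libraries. The spans of the other 3 were narrow: Cep78 averaged 969 CPM in rapeseed, 713 CPM in pear and 889 CPM in non-pollen libraries. Their order of pear and non-pollen libraries turned with library totals alone and with limma on FPKM. The log2 fold changes in pear were then 0.333 and 0.340 for the P450, 0.342 and 0.349 for the arylsulfatase and 0.217 and 0.228 for Cep78. By Spearman's rho 0 of the 5 were kept among the most like, and on FPKM 2. Of these 5 genes, 4 were also among the 5 most like the lactoperoxidase gene (r from 0.956 to 0.968), joined by membrane metallo-endopeptidase-like 1 (LOC107995673, 0.959).

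Most like chorion peroxidase were lysosomal alpha-mannosidase (LOC107996108), neuroligin-1-like (LOC108002125), calreticulin (LOC108003097), an arrestin homolog (LOC107999531) and major royal jelly protein 5 (LOC107997178), each with an r of 0.999. The arrestin, a gene of the eye marker list, had 10.7, 12.1 and 11.9 CPM in rapeseed, 11.1, 12.4 and 12.6 CPM in pear, and 287, 307 and 289 CPM in non-pollen libraries. Major royal jelly protein 5 averaged 244 CPM in rapeseed, 253 CPM in pear and 17336 CPM in non-pollen libraries. All 5 were higher in every non-pollen library than in any library from pollen carriers. This follows from their choice by likeness to chorion peroxidase and is no further result. Their values against those of chorion peroxidase rest on 3 libraries that differ from the other 6, so that many genes give nearly the same r.

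**Figure D5:**
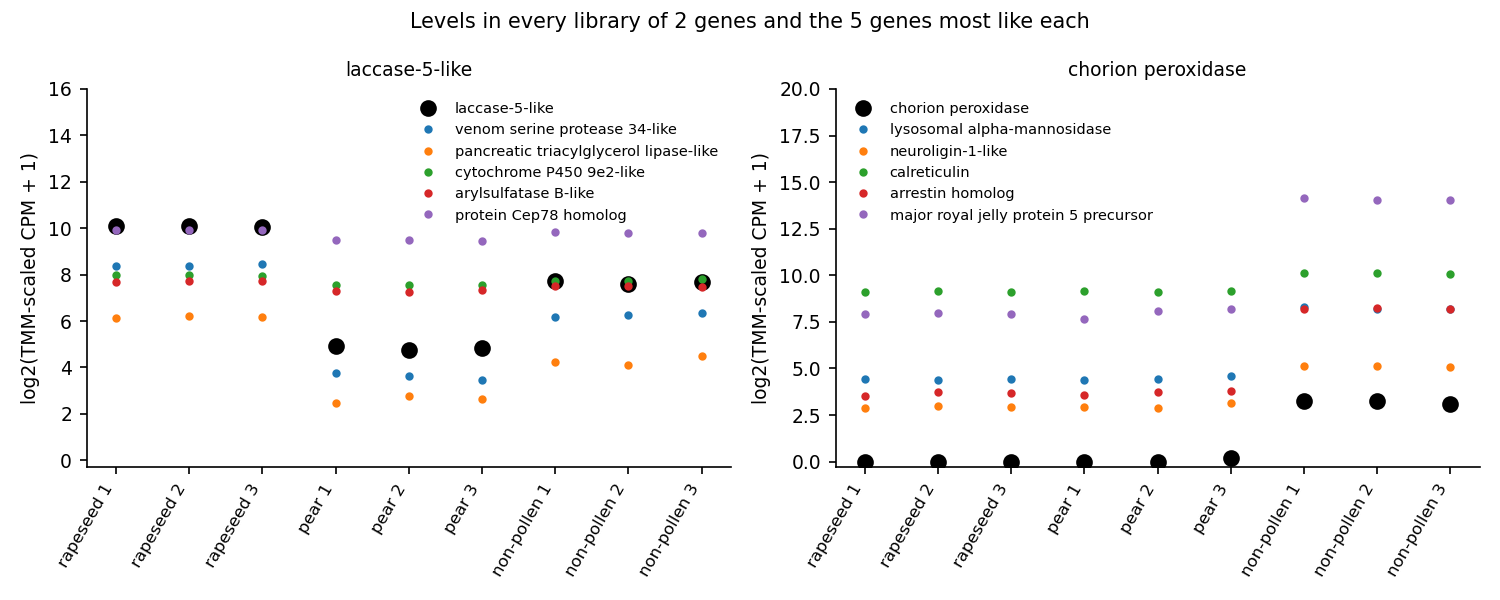
Level (log2 of TMM-scaled CPM plus 1, y axis) of laccase-5-like (left) and chorion peroxidase (right), in black, and of the 5 genes most like each, in colour, in the 9 libraries (x axis, grouped as rapeseed, pear and non-pollen). Laccase-5-like and the venom serine protease are highest in rapeseed and lowest in pear, and chorion peroxidase and its 5 companions are highest in the 3 non-pollen libraries.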

How the data were processed

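The authors deposited whole-number counts and FPKM per gene for 9 poly(A) RNA-seq libraries, and both columns were used. In the submitters' processing notes DESeq2, edgeR, StringTie 2.1.6, HISAT2 2.2.1 and cutadapt 1.9 appear, with no role stated. Not given in the sources used here are the genome build, and whether counting used strand or multiply mapped reads. The paper linked to the deposit describes other libraries, so only the labels gave the groups.

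The 9259 genes that reached an FPKM of 1 in 3 or more libraries were fitted with edgeR 4.0.16 (R 4.3.3) on the deposited counts, with TMM scaling (factors 1.11 to 1.17 in the pollen groups, 0.773 to 0.800 in the non-pollen group), the 3 groups in 1 quasi-likelihood fit, Benjamini-Hochberg adjustment and a threshold of 0.05. The common biological coefficient of variation was 7.92%. Replicate pairs differed by a chi-square per degree of freedom of 6.03 to 14.2, so none was counted as 1 sample. The fit was tested on simulated counts with equal numbers of genes raised and lowered in the pear group, and the outcome is not given here. Those counts held no shift like that of the non-pollen libraries, so they cannot test the scaling.

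The genes described and all lists, matched on descriptions, were chosen with earlier results of these data known. Named beside them were other laccase or peroxidase genes called in at least 1 comparison with a log2 change of at least 0.5, up to 4 called genes per list with the largest change and groups that do not overlap, and the 5 genes most like each described gene. The details of LOC108001913, LOC108002460 and the genes next to laccase-5-like were added after their values were seen. Identifiers were looked up in a RefSeq table of AcerK_1.0 (10607 of 12757 found, 15 of the 17 of these families), used for names and neighbours only. Alternatives were library totals alone, DESeq2 (1.42.0) and its size factors, limma (3.58.1) on log2(FPKM + 1), no filter, only the groups compared, royal jelly and gland enzyme genes left out, a replicate block and each library left out.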

Additional observations from a re-analysis of the deposited data

Results flagged for a closer look

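Laccase-5-like differed in opposite directions in the 2 pollen groups, with every rapeseed library above and every pear library below all non-pollen libraries. The difference of its effects was 5.29 on the log2 scale and was not tested, since the gene was chosen for this pattern. The lactoperoxidase gene LOC107995589 stood on opposite sides in the same way after TMM scaling, with a difference of 0.59 on the log2 scale that was not tested.

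For 3 other genes the effects of rapeseed and pear against non-pollen libraries differed by edgeR's test of rapeseed against pear libraries. The difference on the log2 scale was -0.53 for laccase-1-like LOC108000897 (adjusted p = 2.95e-05), -0.59 for laccase-1-like LOC108001943 (adjusted p = 3.07e-05) and -1.53 for peroxidase LOC108002461 (adjusted p = 0.000303). The 2 laccase-1-like entries may share reads, so they may not count as separate results.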

How the results depend on the processing

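The scaling between libraries mattered most. With library totals alone and with limma on log2(FPKM + 1), laccase-5-like had log2 fold changes of 2.91 and 2.90 in rapeseed and -2.34 and -2.26 in pear against non-pollen libraries, and 5.16 with limma in rapeseed against pear libraries. The lactoperoxidase gene had 0.776 and 0.693 in rapeseed, reversed in pear to 0.233 and 0.211, and had 0.482 with limma in rapeseed against pear libraries. The log2 ratio of chorion peroxidase with library totals alone was -8.37 in rapeseed and -6.80 in pear against non-pollen libraries. Of the 8 other laccase and peroxidase genes, 6 (5 higher, 1 lower) were called in pear against non-pollen libraries with library totals alone and 5 with limma, against 3 with TMM. Of all 9259 genes tested, 7566 were called in that comparison with library totals alone, 7621 with limma and 5155 with TMM. The share of called genes that were higher went, over all genes, to 90.0% in rapeseed and 91.8% in pear against non-pollen and 40.0% in rapeseed against pear libraries, against 49.4%, 51.2% and 61.6% with TMM. The setting with library totals alone changes only the scaling. FPKM is likewise divided by the library total without TMM, while limma also differs in its model, and the part of each was not tested.

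With library totals alone and with limma on FPKM, other named genes that reversed in pear against non-pollen libraries were LOC107994450 (0.515 and 0.520), LOC107995673 (0.359 and 0.362), LOC107996845 (0.217 and 0.228), LOC107997050 (0.0731 and 0.0807), LOC107997858 (0.342 and 0.349), LOC108001415 (0.213 and 0.220), LOC108001943 (0.130 and 0.132), LOC108002067 (0.148 and 0.129), LOC108002460 (0.452 and 0.458), LOC108002468 (0.0857 and 0.0886) and LOC108002715 (0.333 and 0.340). In rapeseed against non-pollen libraries these were LOC107997050 (0.0725 and 0.0807), LOC107998555 (0.0201 and 0.0306), LOC108001415 (0.352 and 0.356), LOC108002460 (0.321 and 0.330) and LOC108002468 (0.0266 and 0.0346). Of 2190 values of single named genes under the alternatives, 2100 kept direction and side of the threshold, 31 lost the call, 27 gained it and 32 reversed.

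Leaving out each library in turn gave log2 ratios from -8.93 to -8.24 in rapeseed and from -8.17 to -6.74 in pear against non-pollen libraries for chorion peroxidase, where fewer libraries change the floor. Laccase-5-like ran from 2.38 to 2.44, from -2.92 to -2.84 and from 5.25 to 5.34 in rapeseed against non-pollen, pear against non-pollen and rapeseed against pear libraries. The lactoperoxidase gene ran from 0.22 to 0.33, from -0.37 to -0.25 and from 0.55 to 0.61.

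Libraries with the same replicate number did not deviate together (correlations from -0.046 to 0.030, 0 of 9 libraries best with their own number), so the numbers do not pair them. With the replicate block, laccase-5-like had -2.88, 2.42 and 5.29 in pear and rapeseed against non-pollen and rapeseed against pear libraries, and the other laccases and peroxidases gave the same counts of calls. The likeness lists depend on the measure: of 5 genes, 0, 0 and 1 were kept by Spearman's rho and 2, 3 and 0 on FPKM for laccase-5-like, chorion peroxidase and the lactoperoxidase gene. Depth limits chorion peroxidase in the pollen groups, where 3 counts over a group correspond to 0.0176 CPM in rapeseed and 0.0191 CPM in pear.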
